A study of Mus musculus with 59 samples.

Results

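The 10 genes described here encode subunits of cohesin, proteins that hold on to it, and its loader. They were taken by name (Smc1a, Smc1b, Smc3, Rad21, Rec8, Stag1, Stag2, Pds5a, Pds5b and Nipbl) from a table of 24421 genes, and all 10 were found in it. Of these, 8 serve cohesin of dividing body cells and are in part shared with meiosis, and 2, Smc1b and Rec8, belong to the meiotic form. The table gives mRNA levels in cloned mouse embryos. Cloning was by somatic cell nuclear transfer (SCNT): an egg without its own chromosomes receives the nucleus of a body cell and is then activated. The comparisons use 4 groups, each with 5 poly(A) RNA libraries and the strain label BDF1. Without treatment, 1-cell embryos were collected 13 to 14 h after activation, the early 2-cell stage at 20 to 21 h and the late 2-cell stage at 33 to 34 h. The other group received trichostatin A (TSA) and was collected as late 2-cell embryos in the same window of 33 to 34 h. TSA inhibits histone deacetylases. The labels mark the untreated groups WT, name cumulus cells as the SCNT donor cells, and mention C57BL/6n females of 5 to 7 weeks as egg donors. The sources used here give neither the dose and timing of TSA nor the number of embryos per library. The table holds 1 value per gene and group, on the scale log2(FPKM + 1), where FPKM counts sequenced fragments relative to transcript length and to the total of the library. No value therefore has an SD, no difference has a test, and no order of levels can be set against replicate spread.

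Cohesin is a protein ring that holds sister chromatids together from DNA replication to anaphase and also forms chromatin loops. Smc1 and Smc3 are its long ATPase arms, a kleisin (Rad21, or Rec8 in meiosis) closes the ring, and a Stag protein sits on the kleisin. Nipbl with its partner Mau2 loads the ring, Pds5 proteins bind it and take part both in keeping it on and, with Wapl, in releasing it. In the oocyte, rings with Smc1b and Rec8 keep the chromosomes together through a long arrest. After meiosis the divisions of the embryo use rings with Rad21.

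The genes lie on 6 chromosomes (RefSeq, GRCm38.p6). Smc1a (chromosome X, 152016428 to 152061973) and Stag2 (X, 42149297 to 42277186) are X-linked. Smc3 lies on chromosome 19 from 53600396 to 53645831, Rec8 on 14 from 55618002 to 55625395, and Stag1 on 9 from 100597709 to 100958544. Chromosome 5 holds Pds5a (65605719 to 65698236) and Pds5b (150673713 to 150810669). Chromosome 15 holds Nipbl (8289824 to 8465315), Rad21 (51962604 to 51993538) and Smc1b (85064689 to 85131957). Smc3, Stag2 and Rec8 overlap no other RefSeq gene, and the other 7 overlap at least 1. Of the overlapping genes, Fam118a (over Smc1b) and Ribc1 (at the start of Smc1a) have values in the table. Whether counting used strand is not given in the sources used here, so reads in such stretches could go to either gene.

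RefSeq promoter entries existed for 7 members, and not for Rad21, Stag2 and Nipbl. The 250 bases before the start are printed 5′ to 3′ for the paralogs Smc1a and Smc1b, whose ratio differed between stages, and for Smc3 and Pds5a, which were at least 2-fold higher in late than in early 2-cell embryos under every setting tried. Capitals mark matches to TTCCCGC or TTGGCGCC on either strand, letters typical of sites for E2F factors, which act on cell cycle genes. The Smc1a stretch is chrX:152016178-152016427 (plus strand) and that of Smc1b is chr15:85131958-85132207 (minus strand). The Smc3 stretch is chr19:53600146-53600395 (plus strand) and that of Pds5a is chr5:65698237-65698486 (minus strand).
Smc1a: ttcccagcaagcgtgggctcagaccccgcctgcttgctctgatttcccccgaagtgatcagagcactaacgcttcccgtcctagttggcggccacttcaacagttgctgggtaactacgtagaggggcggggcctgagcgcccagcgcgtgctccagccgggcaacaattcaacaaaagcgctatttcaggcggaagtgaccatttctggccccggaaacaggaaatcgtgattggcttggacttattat
Smc1b: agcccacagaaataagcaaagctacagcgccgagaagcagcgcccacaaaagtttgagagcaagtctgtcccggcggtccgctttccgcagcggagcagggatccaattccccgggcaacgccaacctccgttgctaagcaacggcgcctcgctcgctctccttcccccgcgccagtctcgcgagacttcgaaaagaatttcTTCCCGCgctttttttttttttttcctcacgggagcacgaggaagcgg
Smc3: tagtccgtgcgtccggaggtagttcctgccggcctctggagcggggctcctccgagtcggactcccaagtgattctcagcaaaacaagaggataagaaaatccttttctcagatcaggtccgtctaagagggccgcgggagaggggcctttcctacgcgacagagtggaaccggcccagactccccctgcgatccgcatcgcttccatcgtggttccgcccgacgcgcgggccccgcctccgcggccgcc
Pds5a: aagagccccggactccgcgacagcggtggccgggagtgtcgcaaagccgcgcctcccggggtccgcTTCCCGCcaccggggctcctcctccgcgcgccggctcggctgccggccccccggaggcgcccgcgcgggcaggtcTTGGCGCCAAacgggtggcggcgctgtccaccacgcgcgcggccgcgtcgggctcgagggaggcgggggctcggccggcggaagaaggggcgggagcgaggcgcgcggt

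The Stag1 stretch (chr9:100643198-100643447) lies inside the gene's span, so the start meant there is not the gene's first base. The stretches of Pds5b and Rec8 reach past the first base of their genes. Among the 7 stretches, 3 held TTCCCGC (Stag1, Pds5a and Smc1b), against 3.82% of 32851 RefSeq promoter stretches of that length. TTGGCGCC was in 2 (Pds5a and Pds5b), against 0.682%. In Pds5a, 2 matches to it overlap on opposite strands, 109 and 107 bases before the start. GGGCGG, the GC box, was in 5 of 7 (32.7% of all), and CCAAT in 5 of 7 (33.8% of all). No match was found to TATAAA (12.4% of all), CACGTG (6.02%) or GGATTA (6.25%). The 250 bases held 44 CpG in Pds5a, 36 in Pds5b, 31 in Stag1, 26 in Smc3, 25 in Smc1b, 16 in Smc1a and 10 in Rec8, against a median of 6 over all stretches. G and C made up 56% (Rec8) to 80.4% (Pds5a) of the 7 stretches, against a median of 52.4% over all. The shares over all stretches were not matched for this, so no excess of a motif can be read from them. The motifs were chosen after these sequences had been seen, and a match describes letters only. Of the printed stretches, the 2 without capitals are those of Smc1a and Smc3.

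In the whole table, 9419 to 12215 genes per column stood at 1 FPKM or more, and the 100 most abundant genes held 24.5% to 44.2% of the summed FPKM. FPKM is relative to the rest of a column, so less of a transcript per embryo and more of other RNA cannot be told apart. All 12 oocyte marker genes were at 1 FPKM or more in every column, summing to 8633, 9293, 3132 and 2373 FPKM from the 1-cell to the TSA-treated column. Their median was 126, 67.1, 82.2 and 71.0 FPKM. In early 2-cell embryos Dppa3 and Btg4 were higher than in 1-cell embryos, and every other one was lower. In late 2-cell embryos Gdf9, Zp1 and Zp3 were higher than in early ones, and every other one was lower. Of 10 markers of the 2-cell stage, 7, 6, 10 and 10 were at 1 FPKM or more in the same order of columns, summing to 177, 295, 553 and 766 FPKM. Gm5662 alone was at 311 FPKM in late 2-cell embryos and 474 with TSA. Tcstv1 (36.8 against 203 FPKM) and Tcstv3 were lower in late than in early 2-cell embryos, and the others were higher. With TSA, Tcstv1, Zscan4c, Zscan4d and Zscan4f were lower, and the others were higher. Of 12 cumulus markers 4 to 5 were at 1 FPKM or more, summing to 16.0, 19.1, 22.4 and 15.0 FPKM. Of 7 blood markers 0, 0, 4 and 4 were, summing to 0.517, 0.493, 52.4 and 69.9 FPKM, with Ptprc and Tyrobp listed at 0 in both late 2-cell columns. The part of these cell types in the values below was not tested.

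The ring members differed in level and in course. Smc1a, the mitotic Smc1 arm, was at 22.1 FPKM in 1-cell and 14.3 in early 2-cell embryos, and at 13.5 FPKM without and 11.6 with TSA at the late 2-cell stage. It was highest at the 1-cell stage and, as deposited, nearly level between the 2-cell stages, although at least 2-fold lower in late 2-cell embryos after median-ratio scaling (-1.01 on the log2(FPKM + 1) scale) or quantile normalization (-1.05). Smc3, the arm that every cohesin ring uses, was at 10.9, 4.45, 38.7 and 54.0 FPKM in the same order. Its lowest value was at the early 2-cell stage and its highest with TSA, a 12.1-fold range. Rad21, the mitotic kleisin that separase cuts at anaphase, was at 52.9, 59.5, 104.4 and 106.8 FPKM. It was close to its 1-cell level at the early 2-cell stage and higher in both late 2-cell columns, which lay close together. Per length, Rad21 was above Smc3 in all 4 columns, by 4.84-fold, 13.4-fold, 2.70-fold and 1.98-fold.

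Stag1 and Stag2, alternative partners of the kleisin, had unlike courses. Stag1 was at 10.3, 10.2, 12.7 and 8.76 FPKM in the same order of columns, the narrowest range of all members (0.49 on the log2(FPKM + 1) scale). Stag2 was at 15.8, 10.8, 22.5 and 28.0 FPKM, lowest at the early 2-cell stage and highest with TSA. The Pds5 paralogs had opposite orders at the first stages and later. Pds5a was at 6.83, 6.65, 42.1 and 34.8 FPKM, low in the first 2 columns and high in both late 2-cell columns. Pds5b was at 13.0, 12.5, 22.4 and 24.5 FPKM, with the same split but a smaller step. Nipbl, the loader, was at 206, 162, 113 and 114 FPKM, the highest member in every column, with its highest value at the 1-cell stage.

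Both meiosis-specific members were present at very different levels. Smc1b, the meiotic Smc1 arm, was at 120 FPKM in 1-cell and 67.7 in early 2-cell embryos, and at 35.5 FPKM without and 21.0 with TSA at the late 2-cell stage. Each column was lower than the one before, and TSA-treated embryos were lowest. Rec8, the meiotic kleisin, was at 0.0806, 0.174, 2.54 and 1.21 FPKM. It was under 1 FPKM in the first 2 columns, where a value near 0 can be a failed estimate, and the lowest member in all 4. Smc1b, in contrast, had rank 2 of the 10 at the 1-cell and early 2-cell stages, rank 5 at the late 2-cell stage and rank 7 with TSA.

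**Figure D1:**
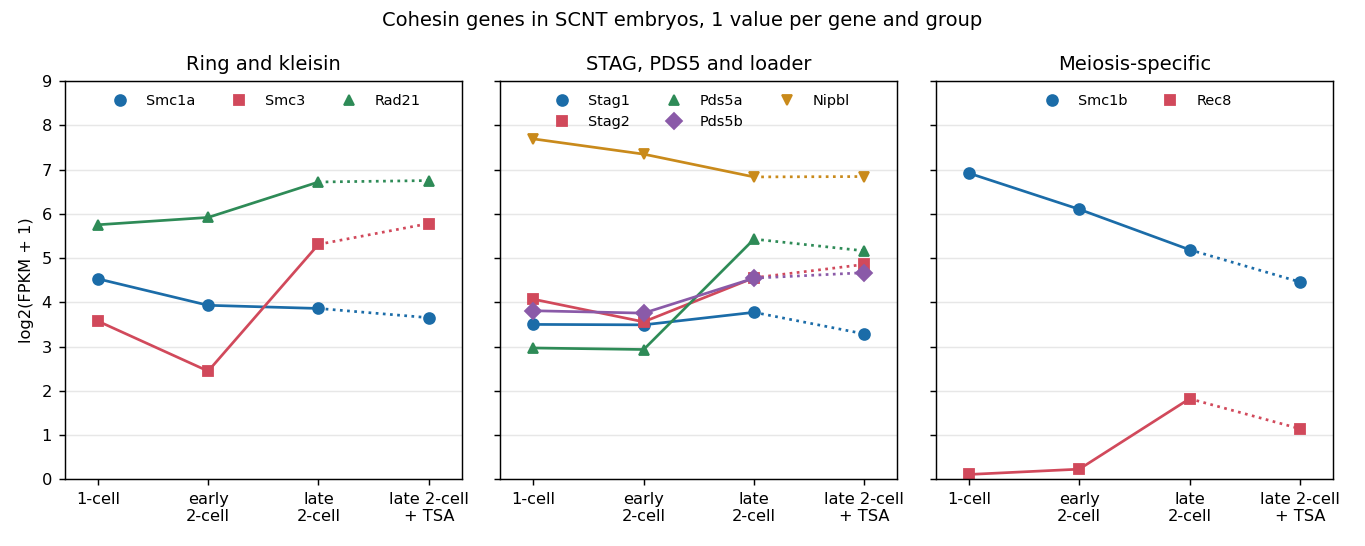
Level of each member (y axis, log2(FPKM + 1)) in the 4 groups (x axis), 1 point per gene and group with no replicate error. Solid lines join the untreated stages and dotted lines lead to TSA-treated late 2-cell embryos. Smc3 and Pds5a stand higher in both late 2-cell columns than before, and Smc1b is lower in each column than in the one before.

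The order of the members was not the same at each stage. In 1-cell embryos it ran from Nipbl, Smc1b and Rad21 through Smc1a, Stag2, Pds5b, Smc3, Stag1 and Pds5a to Rec8. In late 2-cell embryos it ran Nipbl, Rad21, Pds5a, Smc3, Smc1b, Stag2, Pds5b, Smc1a, Stag1 and Rec8. Pds5a thus had rank 9 of 10 in the one and rank 3 in the other, and Smc1a had ranks 4 and 8. Over the 8 mitotic and shared members the highest level was 30.1 times the lowest at the 1-cell stage, 36.4 times at the early 2-cell stage, 8.91 times at the late 2-cell stage and 13.0 times with TSA. The levels of these 8 genes were therefore closer together in late 2-cell than in early 2-cell embryos. Their median was 14.4, 11.7, 30.6 and 31.4 FPKM in the 4 columns.

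Ratios of paralogs within a column do not depend on the column's total. Smc1b made up 84.4% of the summed FPKM of the Smc1 pair at the 1-cell stage, 82.6% and 72.4% at the early and late 2-cell stages, and 64.5% with TSA. The meiotic paralog thus stayed above the mitotic one in all 4 columns, by 5.42-fold at first and 1.81-fold with TSA. Pds5a made up 34.4%, 34.7%, 65.3% and 58.7% of the Pds5 genes in that order. Pds5b led in the first 2 columns and Pds5a in both late 2-cell columns. With the meiotic Stag3 counted in, Stag2 held 59.7%, 51.0%, 55.6% and 69.1% of the Stag genes, and Stag1 held 39.0%, 48.4%, 31.3% and 21.6%. Stag2 was 1.53, 1.05, 1.77 and 3.19 times Stag1. Among the kleisins Rad21 held 97.4% to 98.5% in all 4 columns.

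**Figure D2:**
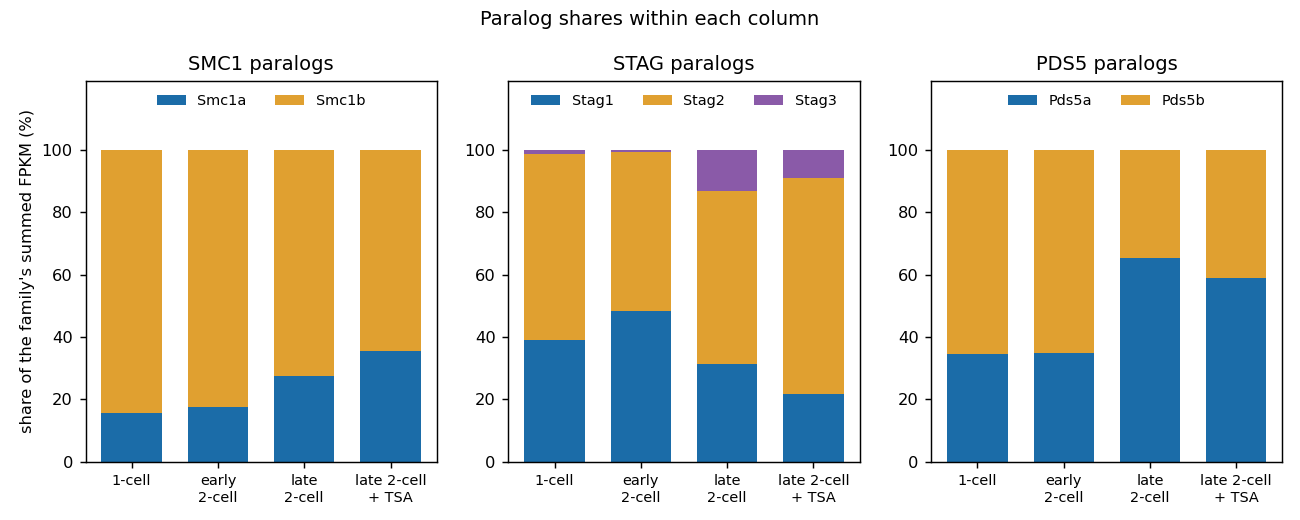
Share of each paralog in its family's summed FPKM (y axis, percent) in the 4 groups (x axis), with no replicate error. The Smc1b share is 84.4% in the 1-cell and 64.5% in the TSA column, and the Pds5a share is 34.7% in early and 65.3% in late 2-cell embryos.

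Early 2-cell embryos were compared with 1-cell embryos to describe the transcripts across the first cleavage. Any gene at 1 FPKM or more in either column was kept, and it was counted when it differed by at least 1 on the log2(FPKM + 1) scale, which is 2-fold. All members but Rec8 were kept. Smc3 was lower, at 4.45 against 10.9 FPKM, a difference of -1.13, and was the 1 member of 9 counted. Of 10117 genes kept, 10.8% were 2-fold apart and 7.12% were 2-fold lower, with 3.72% 2-fold higher, so 1 of 9 is close to the background. Smc3 was not counted with a pseudocount of 5 FPKM (-0.75) or after quantile normalization. The next largest differences were those of Smc1b (-0.82), Smc1a (-0.60) and Stag2 (-0.51), followed by Nipbl (-0.34). Stag1, Pds5a and Pds5b lay between -0.05 and -0.01, and their sign turned under each of 3 other scalings, while Rad21 stood at 0.17. The median of the 8 mitotic and shared members was -0.20, against -0.08 over all genes kept, and 7 of the 8 lay below 0 as did most genes. Of all genes counted, 34.3% were higher, against 44.4% after median-ratio scaling and 47.7% after quantile normalization.

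Late 2-cell embryos were compared with early 2-cell embryos, the interval in which the mouse embryo's main wave of transcription begins. As deposited, 3 members were counted as higher and 0 as lower. After median-ratio scaling, Smc1a (-1.01), Nipbl (-1.51) and Smc1b (-1.90) were counted as lower, and after quantile normalization Smc1a (-1.05) and Smc1b (-1.56) were. Smc3, at 38.7 against 4.45 FPKM, differed by 2.86, and Pds5a, at 42.1 against 6.65 FPKM, by 2.49. Rec8, at 2.54 against 0.174 FPKM, differed by 1.59, and it was kept only through its late 2-cell value. Of 12794 genes kept, 58.8% were 2-fold apart, with 47.9% higher and 10.9% lower. Since the 3 of 10 include Rec8, and other scalings gave other counts, the count is a description and nothing is read from it. Stag2 was just short of being counted at 0.996, although in plain FPKM it was 2.09-fold higher. Rad21 (0.80) and Pds5b (0.79) were higher by less than 2-fold, and Stag1 by 0.28. Smc1b was lower by a difference of -0.91, Nipbl by -0.51 and Smc1a by -0.07.

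The median of all genes between these stages was 0.92 as deposited and 0.056 after median-ratio scaling, so differences were also read against it. Relative to that median, Smc3 stood at 1.95, Pds5a at 1.58 and Rec8 at 0.67. Stag2 (0.08), Rad21 (-0.12) and Pds5b (-0.13) lay near it. Stag1 (-0.63), Smc1a (-0.99), Nipbl (-1.43) and Smc1b (-1.83) lay below it. Smc3 and Pds5a were at least 2-fold higher under all 7 other settings tried for single genes, from 1.92 to 3.09 for Smc3 and from 1.55 to 2.64 for Pds5a. The filter settings among the 7 do not change a gene's difference, so only the pseudocounts and scalings could move these values. Rec8 was at 0.54 with a pseudocount of 5 FPKM. The sign turned under median-ratio scaling for Rad21 (-0.19), Pds5b (-0.16) and Stag1 (-0.64). Smc1a, Nipbl and Smc1b were below 0 under every setting, of which only the scalings can turn a sign. The median of the 8 mitotic and shared members was 0.80, and it was -0.18 after median-ratio scaling. Higher genes made up 81.4% of all genes counted, 54.1% after median-ratio scaling and 49.0% after quantile normalization.

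TSA-treated were compared with untreated late 2-cell embryos, to ask how these genes stand when histone deacetylases are inhibited. No member was 2-fold apart, and no test was possible. Of 12756 genes kept, 6.59% were 2-fold apart (2.51% higher, 4.08% lower), so 0 of 10 is close to the background. On the deposited scale the largest differences were those of the meiosis-specific members, both lower with TSA. Smc1b, at 21.0 against 35.5 FPKM, differed by -0.73, and 9.53% of the genes kept had a lower value. Rec8, at 1.21 against 2.54 FPKM, differed by -0.68, with 11.3% of genes lower still. In plain FPKM, Rec8 was 2.1-fold lower, and it was counted with a pseudocount of 0.1 FPKM (-1.01). Oocyte markers also summed to less with TSA (2373 against 3132 FPKM), and their part in these values was not tested.

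Among the mitotic and shared members, 5 were higher and 3 lower with TSA, where 43.3% of all genes kept were higher. Smc3 was at 54.0 against 38.7 FPKM (0.47), Stag2 at 28.0 against 22.5 (0.30) and Pds5b at 24.5 against 22.4 (0.12). Rad21 (0.03) and Nipbl (0.01) were nearly level. Stag1 was lower, at 8.76 against 12.7 FPKM (-0.49), as were Pds5a at 34.8 against 42.1 (-0.26) and Smc1a at 11.6 against 13.5 (-0.21). Their median was 0.02, against -0.08 over all genes kept. The sign of each of the 10 differences was the same under all settings tried, of which only the scalings can turn a sign. Within the Stag and Pds5 pairs the signs were opposite, with Stag2 and Pds5b above and Stag1 and Pds5a below 0. Higher genes made up 38.1% of all genes counted, 61.2% after median-ratio scaling and 52.7% after quantile normalization.

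**Figure D3:**
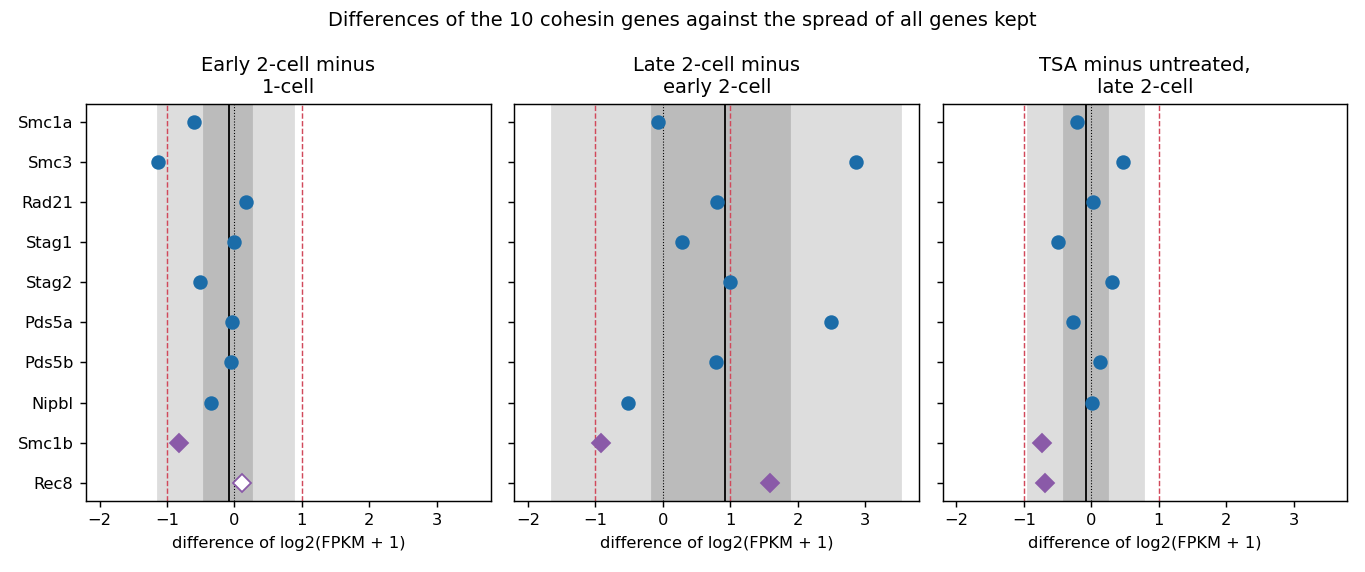
Difference of log2(FPKM + 1) (x axis) of each member (y axis) in the 3 comparisons, circles for mitotic and shared and diamonds for meiosis-specific members, with no replicate error. The open diamond is Rec8 where it was not kept. Grey bands hold the central 90% (light) and central 50% (dark) of all genes kept, the solid line is their median and the dashed lines mark 2-fold. Smc3 and Pds5a lie right of the dark band between the 2-cell stages.

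Cohesin's other subunits and regulators were described from a list of 18 genes, all found in the table. Between 1-cell and early 2-cell embryos, 1 of the 15 kept was 2-fold apart, near the 10.8% of all genes. It was Ddx11, a helicase that helps to set up cohesion, at 14.2 FPKM against 37.8 at the 1-cell stage (-1.35). Between the 2-cell stages, 7 of 16 were higher and 2 lower, where 47.9% and 10.9% of all genes were. Of the 7, Stag3, Chtf18 and Chtf8 were under 1 FPKM in early 2-cell embryos and were kept only through their late 2-cell value, so the count is a description and nothing is read from it. The list median, with these 3 genes in it, was 0.47, where that of all genes kept was 0.92. Dscc1, of the clamp loader that aids cohesion, was at 26.6 against 2.40 FPKM (3.02), and its partners Chtf18 and Chtf8 at 3.75 against 0.265 (1.91) and 4.12 against 0.152 FPKM (2.15). Stag3, the meiotic Stag gene, was at 5.32 against 0.130 FPKM (2.48).

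The enzymes that acetylate Smc3 to lock the ring had differences of opposite sign between the 2-cell stages. Esco1 was at 385 FPKM in late against 181 in early 2-cell embryos (1.08), and Esco2 at 124 against 294 (-1.23). The median of all genes kept was 0.92 in this comparison, and Esco1 lay near it. Pttg1, securin, which keeps separase inactive, had the largest difference of the list. It was at 4823 FPKM in 1-cell and 9416 in early 2-cell embryos, and at 473 FPKM without and 411 with TSA at the late 2-cell stage (-4.31 between the 2-cell stages). Espl1, separase itself, was at 10.3 against 4.14 FPKM between the 2-cell stages (1.14), and Sgol2a, a shugoshin that shields centromeric cohesin, at 48.3 against 20.8 (1.18). Both also lay near the median of all genes kept. Rad21l, another meiotic kleisin, was at 1.11 FPKM or less in all 4 columns.

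With TSA, 1 of 16 kept genes of that list was 2-fold higher and 1 lower, against 2.51% and 4.08% of all genes. The higher one was Mau2, the partner of Nipbl in loading, at 29.2 against 13.8 FPKM (1.03). This is just past 2-fold, and no other setting was tried for it. Mau2 was at 9.71 FPKM in the 1-cell and 11.5 in the early 2-cell column, and its highest value of the 4 was that with TSA. Since Nipbl was nearly level, the ratio of Nipbl to Mau2 was 8.19 without and 3.90 with TSA, and it had been 21.2 in 1-cell embryos. The lower one was Chtf8, at 1.05 against 4.12 FPKM (-1.32). Wapal (Wapl), which opens the ring, was at 585, 643, 593 and 661 FPKM, 2.84 times Nipbl in the 1-cell and 5.81 times in the TSA column. Hdac8, which removes the acetyl groups from Smc3, was at 1.14, 0.706, 0.306 and 0.169 FPKM.

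**Figure D4:**
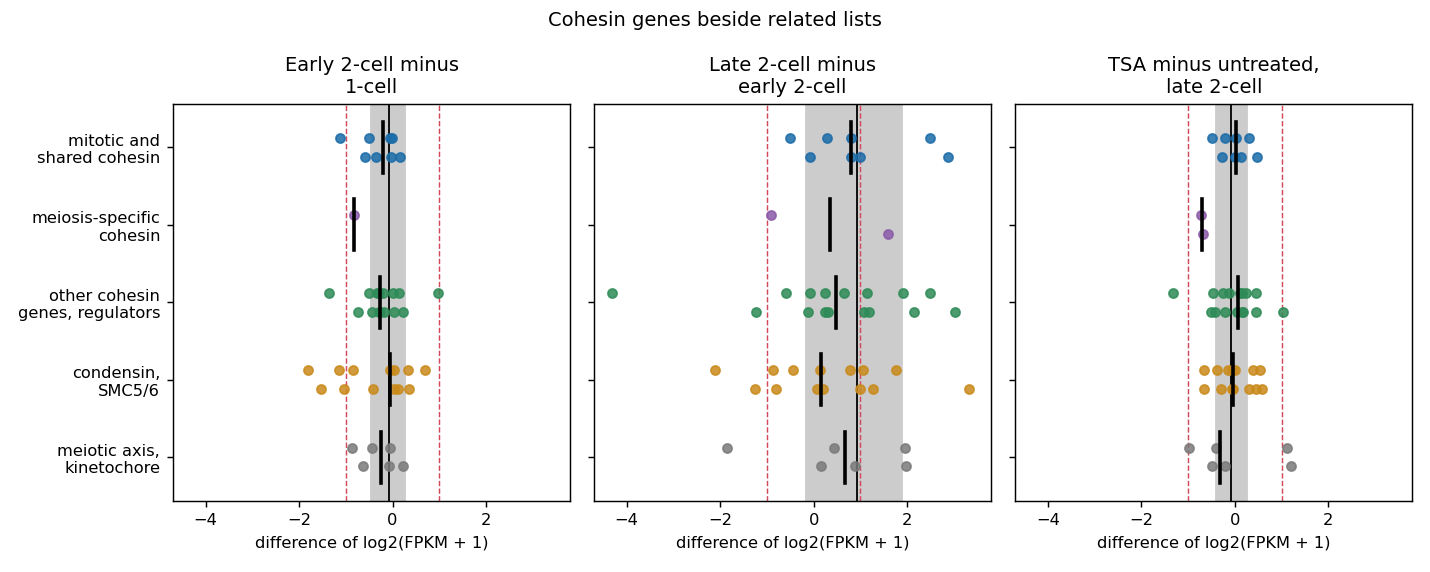
Difference of log2(FPKM + 1) (x axis) of each gene kept, by list (y axis), in the 3 comparisons, with no replicate error. Thick bars are list medians, the grey band holds the central 50% of all genes kept, the thin line is their median and the dashed lines mark 2-fold. Pttg1 is the point at -4.31 between the 2-cell stages.

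The genes whose levels were most like those of 2 members were sought by the distance of log2(FPKM + 1) over the 4 columns. The search covered 12351 genes at 1 FPKM or more in at least 1 column, with genes named Gm and a number or ending in Rik left out. Nearest to Smc3, the member with the widest range, was Gclm at a distance of 0.19, with 11.3, 4.83, 36.8 and 48.9 FPKM. Cpsf3 (0.33) and Hspa4 (0.36) came next. Nearest to Stag1, the member with the narrowest range, were Pam16 (0.08), Trpc4ap (0.16) and Cep135 (0.17). With 4 values per gene such a match describes these columns only.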

How the data were processed

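The authors deposited log2(FPKM + 1) values, per the file headers, in a table of 24421 genes with 1 value per gene and group. The submitters' processing notes name mm10 as the build and, with no step given, list Cufflinks, StringTie 1.3.4, HISAT2 2.1.0 and SAMtools 1.7. The sources used here do not give the annotation or say how the 5 libraries of a group were combined. The 1-cell column is named by 13 h and was matched through the collection time in the labels' protocols. Another 2 columns, with names found on no labelled RNA library, stayed out. Depth is unknown: the low values of genes spanning up to 2000 bp showed no clear whole-read steps (at most 31.7% within 0.1 of a whole number at the best step, against 20% with no steps), so no interval or floor is given.

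Differences were taken on the deposited scale (pseudocount 1 FPKM) with Python 3.11.15, pandas 2.3.3 and numpy 2.4.6, over genes with at least 1 FPKM in either column. No model was fitted, since each group has 1 value. The 3 comparisons share columns and are not independent. The counting code was checked on simulated data with large changes of well-expressed genes and no noise. That check says nothing of low values or of differences near 2-fold. All 10 members are named, and of 3 lists of other genes (38 genes, 4 under an older symbol) those 2-fold apart, or else the 2 with the largest difference at 5 FPKM or more. Hdac8, Wapal, Rad21l and some values of the meiotic axis genes were named after their values were seen. The members and lists were chosen with earlier results of these data known. Alternatives were other pseudocounts, scalings, filters and a 1.5-fold count. They were tried for the members and for counts over all genes, and not for the 3 lists of other genes.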

Additional observations from a re-analysis of the deposited data

How the results depend on the processing

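Of 29 member differences, 4 were 2-fold apart as reported. All 4 kept their sign under every setting tried, and 2, Smc3 and Pds5a between the 2-cell stages, were 2-fold apart under all of them. Filters do not change a gene's difference and pseudocounts do not change its sign, so only the scalings could turn a sign. Rec8 was not kept with at least 5 FPKM. Of the other 25 member differences, 20 were under 2-fold under all settings. The number of members counted between 1-cell and early 2-cell embryos was 1, and 0 with a pseudocount of 5 FPKM or after quantile normalization, and 3 at 1.5-fold. Between the 2-cell stages it was 3, and 6 after median-ratio scaling (3 higher, 3 lower). At 1.5-fold it was 7, where 9656 of 12794 genes kept were counted. It was 4 with a pseudocount of 0.1 FPKM, after quantile normalization or when rescaled without the 100 most abundant genes. With a pseudocount of 5 FPKM or a filter of at least 5 FPKM it was 2. With TSA it was 0, and 1 with a pseudocount of 0.1 FPKM and 2 at 1.5-fold. The median of the 8 mitotic and shared members between the 2-cell stages was 0.80, but -0.18 after median-ratio scaling and -0.077 after quantile normalization; both scalings bring the median of all genes near 0. Over all genes, the number counted between 1-cell and early 2-cell embryos was 1096, against 424 and 1865 with pseudocounts of 5 and 0.1 FPKM and 2995 at 1.5-fold. Between the 2-cell stages it was 7527 of 12794 kept, against 6946 of 12450 after median-ratio scaling and 4403 with a pseudocount of 5 FPKM. With TSA it was 840, against 181 and 1688 with those pseudocounts, 459 with at least 5 FPKM and 3151 at 1.5-fold. No paired analysis was possible because the table holds 1 value per group, and for the same reason no library could be left out. Depth is unknown, so how precise the low Rec8 values are cannot be given.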

Other observations

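Condensin and the Smc5/6 complex, relatives of cohesin, were measured as a list of 14 genes. Condensin packs mitotic chromosomes, and its subunits did not share 1 course. Between 1-cell and early 2-cell embryos, 4 of 13 kept genes were 2-fold lower, against 7.12% of all genes. Smc4 and Ncapd3 were only just past 2-fold, and no other setting was tried for this list. Ncapg was at 60.6 against 214 FPKM (-1.80 on the log2(FPKM + 1) scale), Ncaph at 9.78 against 30.4 (-1.54), Ncapd3 at 6.69 against 15.9 (-1.14) and Smc4 at 26.0 against 54.8 (-1.05). Ncapd2, a partner of Ncapg and Ncaph in condensin I, was at 0.793 and 0.950 FPKM in these columns and at 18.4 FPKM in late 2-cell embryos, a difference of 3.32 between the 2-cell stages. Between these stages 4 of 14 genes were higher and 2 lower, where 47.9% and 10.9% of all genes were, and Ncapd2 was kept only through its late 2-cell value. Ncaph2 of condensin II was at 26.9 against 7.29 FPKM (1.75), Smc5 at 8.37 against 2.89 (1.27) and Smc2 at 28.2 against 13.1 (1.05). The median of all genes kept was 0.92 in this comparison. The lower ones were Nsmce2, a SUMO ligase, at 68.3 against 299 FPKM (-2.11), and Nsmce1 at 36.4 against 88.3 (-1.26). With TSA, 0 of 14 were 2-fold apart, near the 6.59% of all genes, and the widest were Ncapd3 (-0.66) and Nsmce2 (-0.65).

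Of 6 genes of the meiotic chromosome axis and kinetochore, 0 were 2-fold apart between 1-cell and early 2-cell embryos, near the 10.8% of all genes. In that comparison Meikin stood at -0.86, Hormad2 at -0.64 and Hormad1 at -0.43, all under 5 FPKM, while Sycp1 stood at 0.23, Sycp2 at -0.08 and Sycp3 at -0.06. Between the 2-cell stages Sycp3, of the axis, was at 62.5 against 15.2 FPKM (1.97), Hormad1 at 6.74 against 1.01 (1.94), and Sycp1, of the synaptonemal complex, lower at 2.1 against 10.3 (-1.86). With TSA, Hormad1 was at 15.9 against 6.74 FPKM (1.12) and Meikin, a meiotic kinetochore protein, at 8.70 against 3.24 (1.20). Sycp3, at 31.0 against 62.5 FPKM, was lower with TSA by a difference of -0.99, on the same side as Smc1b and Rec8. These meiotic genes stood on both sides of 0 with TSA, with 2 higher and 4 lower, where 43.3% of all genes kept were higher.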
